A study of Homo sapiens with 6 samples.

Results

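The 10 genes described here encode parts of the machinery by which RNA polymerase I (Pol I) makes ribosomal RNA: the subunits POLR1A, POLR1B, POLR1C, POLR1D and POLR1E, the initiation factors UBTF, RRN3 and TAF1D, and the nucleolar factors TCOF1 and HEATR1. They were taken by name from the 53712 gene names of the deposited count table; all 10 were found, and all 10 passed the filter on low counts that left 17596 genes for testing. Pol I transcribes the repeated ribosomal DNA in the nucleolus into a single precursor that is cut into most of the RNAs of the ribosome. At the promoter, UBTF binds and bends the ribosomal DNA, the SL1 complex (TBP with its TAF1 subunits) marks the start, and RRN3 carries the polymerase to SL1. Pluripotent stem cells divide rapidly and make many ribosomes, so these genes are well expressed in them.

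The samples were cultures of H9, a long-established line of human embryonic stem cells, kept in RSeT, which holds such cells in a naive-type state. Both groups received 10 nM DZNep, a blocker of S-adenosylhomocysteine hydrolase, together with 5 nM of the histone deacetylase inhibitor TSA (trichostatin A), starting 24 h after passage. One group also received 2.5 µM UNC1999, an inhibitor of EZH2 and EZH1, the methyltransferases of Polycomb repressive complex 2 (PRC2). The other received 2.5 µM UNC2400, an N-methylated analog of UNC1999 with low activity on these enzymes, and cells of both groups were collected after 48 h. Each group had 3 poly(A)-selected libraries from one cell line, none was free of both compounds, and per its title the study concerns nucleolar organisation and the 8-cell-like state. The comparison therefore asks how inhibitor and analog differ on a DZNep and TSA background.

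With UNC1999, 6 of the 10 genes rose (POLR1C, TAF1D, POLR1D, UBTF, POLR1E and RRN3), 3 fell (HEATR1, TCOF1 and POLR1A), and POLR1B did not pass the test (edgeR, Benjamini-Hochberg adjusted p under 0.05 over all genes tested). Of all genes tested, 52.7% passed the same threshold, 26.8% higher and 25.9% lower, so passing was common in this comparison. The count of 6 that rose was 3 without UNC1999 replicate 3 and 3 in a fit with offsets for gene length and GC content, and UBTF, POLR1E and RRN3 were the genes lost; the 3 that fell passed in every alternative run. The 3 that rose most gained 0.42 to 0.47 on the log2 scale and the 3 that fell lost 0.41 to 0.61, against changes of 0.15 to 0.17 for UBTF, POLR1E and RRN3. The median log2 fold change was 0.16 over the 10 genes and 0.02 over all genes tested, and the median size regardless of sign was 0.41 and 0.28. These are bulk libraries, in which fewer cells of a type and less RNA per cell cannot be told apart.

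**Figure D1:**
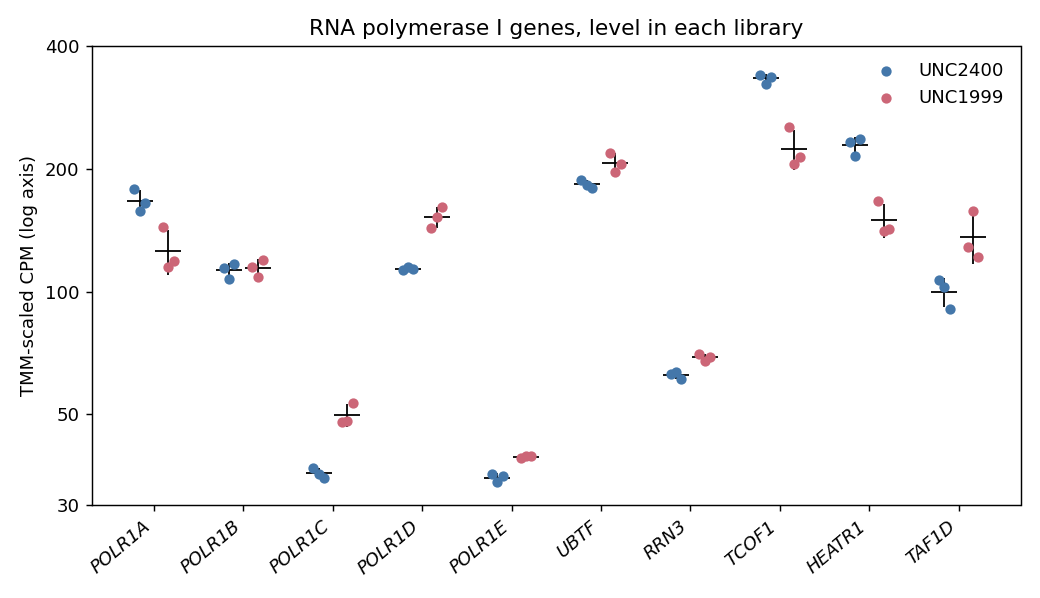
Level of each of the 10 genes in each library, in CPM (counts scaled to a common library size with TMM factors) on a log axis; points are libraries, horizontal bars are group means and vertical bars the SD over 3 libraries. The groups stand apart for every gene except POLR1B, at 113 CPM with UNC2400 and 114 CPM with UNC1999. Of all genes tested, 60.6% stand apart in either direction.

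The promoters of 4 genes are printed here because they show genes that rose (POLR1C and TAF1D) beside genes that fell (HEATR1 and POLR1A); they are the 4 with 1 annotated start in the RefSeq table. The table covered 8 of the 10 genes; POLR1E and TCOF1 were not in it. Each line holds the 250 bases before the start site, 5′ to 3′ on the gene's strand, in build GRCh38.p14, with capitals marking CTTCCGG (the core that ETS factors bind) or TCTCGCGA on either strand. The windows are chr6:43516839-43517088 on the plus strand for POLR1C, and on the minus strand chr11:93741496-93741745 for TAF1D, chr1:236604517-236604766 for HEATR1 and chr2:86105887-86106136 for POLR1A.
POLR1C: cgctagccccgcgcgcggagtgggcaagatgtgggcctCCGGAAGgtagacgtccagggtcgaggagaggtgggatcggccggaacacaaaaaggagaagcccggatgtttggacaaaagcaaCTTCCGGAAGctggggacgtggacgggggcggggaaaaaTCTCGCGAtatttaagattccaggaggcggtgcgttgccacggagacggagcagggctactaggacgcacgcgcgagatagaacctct
TAF1D: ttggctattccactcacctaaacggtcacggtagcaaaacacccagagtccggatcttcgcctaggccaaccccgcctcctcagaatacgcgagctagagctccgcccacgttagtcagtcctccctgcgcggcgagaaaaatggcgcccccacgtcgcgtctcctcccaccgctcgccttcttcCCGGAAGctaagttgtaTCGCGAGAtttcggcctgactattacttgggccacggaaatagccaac
HEATR1: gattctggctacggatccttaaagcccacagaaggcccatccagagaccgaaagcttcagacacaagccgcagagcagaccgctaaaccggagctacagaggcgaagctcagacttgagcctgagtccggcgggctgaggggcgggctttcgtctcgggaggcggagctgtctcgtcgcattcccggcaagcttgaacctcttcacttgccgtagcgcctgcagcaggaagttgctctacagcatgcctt
POLR1A: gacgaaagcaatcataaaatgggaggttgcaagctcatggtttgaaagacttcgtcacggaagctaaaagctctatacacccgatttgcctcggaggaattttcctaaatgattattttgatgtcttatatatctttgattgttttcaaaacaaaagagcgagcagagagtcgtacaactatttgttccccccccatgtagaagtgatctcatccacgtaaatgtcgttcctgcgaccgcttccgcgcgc

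The motifs were chosen after these sequences had been seen, so the matches are a description. CTTCCGG, searched on both strands, was in a window of POLR1B, POLR1C, RRN3 and TAF1D, 4 of the 8 genes covered, and in 8.52% of all 35116 promoter windows of that length. The 2 shares are unlike, since a gene counted if any of its windows matched. POLR1B, POLR1D, UBTF and RRN3 had 2 windows each. TCTCGCGA, an element of many promoters without a TATA box, was in the windows of POLR1C and TAF1D and in 1.03% of all windows. The printed windows of POLR1A and HEATR1 held neither. The letters CACGTG, bound by MYC with MAX, were in no window of the 8 genes and in 6.34% of all windows, and TATAAA was in none of the 8 and in 10.7% of all. CCAAT was found for POLR1D and RRN3 and in 32.0% of windows. GC content was 61.2% for POLR1C, 58.4% for TAF1D, 59.6% for HEATR1 and 43.2% for POLR1A, against a median of 58.0% over all windows.

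Total counts were 29699441 to 42345448 per library and did not separate the groups (two-sided exact permutation p = 1.0). The 10 genes had 1026 to 13509 counts in each library. The first principal component of log2 CPM held 67.8% of the variance and separated the groups, with UNC1999 replicate 1 at 20.1 between the UNC2400 libraries (-35.2 to -31.6) and UNC1999 replicates 2 and 3 (39.3 and 41.4). In 7 of the 10 genes, all but POLR1B, UBTF and RRN3, the log2 CPM of UNC1999 replicate 1 lay closer to the UNC2400 mean than the mean of UNC1999 replicates 2 and 3 did. Pluripotent markers were abundant in all libraries, with a summed level of 7668 to 7767 CPM over 8 genes with UNC2400 and 6407 to 7132 CPM with UNC1999. Of these 8 markers 4 fell, POU5F1 among them by 0.44 ± 0.06 on the log2 scale (SE, adjusted p = 1.90e-05), and none rose. The shares over all genes tested were 26.8% higher and 25.9% lower. In a fit with offsets for gene length and GC content all 8 were lower, where 48.3% of all genes tested passed in either direction. The call of NANOG was lost without UNC2400 replicate 2 (adjusted p = 0.0577) or 3 (0.127) or UNC1999 replicate 3 (0.0568).

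POLR1A and POLR1B encode the pair of large subunits that together form the active centre of Pol I, and their messages did not move together. POLR1A (chr2:86020216-86106155, minus strand; GRCh38 in GENCODE release 29, as for all genes here) stood at 178, 157 and 165 CPM in UNC2400 replicates 1 to 3 and at 144, 115 and 119 CPM in UNC1999 replicates 1 to 3. All UNC1999 libraries lay below all UNC2400 libraries, as held for 3 of the 10 genes and 29.7% of genes tested, and replicate 1 was the highest of its group in both. The mean went from 167 ± 10.5 to 126 ± 15.8 CPM (SD, n = 3), and POLR1A fell by 0.41 ± 0.07 on the log2 scale (SE, adjusted p = 0.000182). With an offset for the trend of log2 CPM with gene span, exon length and GC content, the difference was -0.25 (adjusted p = 0.00427).

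POLR1B (chr2:112541915-112577150, plus strand) had 114, 107 and 117 CPM with UNC2400 and 115, 108 and 120 CPM with UNC1999. The groups overlapped throughout, and their means were 113 ± 4.94 and 114 ± 5.59 CPM (SD, n = 3). The log2 fold change was 0.02 with a 95% interval of -0.09 to 0.13 (adjusted p = 0.784), an interval that does not hold the change of POLR1A. Within each library, the ratio of POLR1A to POLR1B counts was 1.56, 1.47 and 1.41 with UNC2400 and 1.25, 1.06 and 0.995 with UNC1999. The groups stood apart, by -0.43 on the log2 scale. The exact two-sided permutation p was 0.1, the smallest that 3 against 3 libraries can give, and 0.2 adjusted over the 4 pairs of genes compared.

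POLR1C and POLR1D encode a pair of subunits that bind each other and nucleate the assembly of both Pol I and RNA polymerase III (Pol III). Both rose to a similar extent. POLR1C (chr6:43509702-43562419, plus strand) stood at 37.0, 35.8 and 34.8 CPM with UNC2400 and at 47.8, 48.1 and 53.4 CPM with UNC1999. The groups were well apart, and POLR1C was 0.47 ± 0.06 higher on the log2 scale (SE, adjusted p = 4.85e-06). Genes on the opposite strand share part of its exon bases: 7.06% for AL355802.2, 6.27% for XPO5, 2.52% for LRRC73 and 2.32% for YIPF3. Opposite-strand genes also overlap the exons of TAF1D (at most 2.97% for any single gene) and UBTF (at most 3.09%). The part of these overlaps in the counts was not tested. The counting's strand setting is not given.

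POLR1D (chr13:27620742-27744237, plus strand) had 113, 115 and 113 CPM with UNC2400 and 143, 152 and 161 CPM with UNC1999. The UNC2400 libraries lay within 2 CPM of each other, and every UNC1999 library was above them, as held for 6 of the 10 genes and 30.9% of genes tested (60.6% stood apart in either direction). The mean rose from 114 ± 0.952 to 152 ± 8.91 CPM (SD, n = 3), by 0.42 ± 0.05 on the log2 scale (SE, adjusted p = 4.67e-06). The log2 ratio of POLR1C to POLR1D counts was -1.66 ± 0.05 with UNC2400 and -1.61 ± 0.04 with UNC1999 (SD, n = 3); these values overlapped and differed by 0.05 (exact two-sided permutation p = 0.2, adjusted 0.267).

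**Figure D2:**
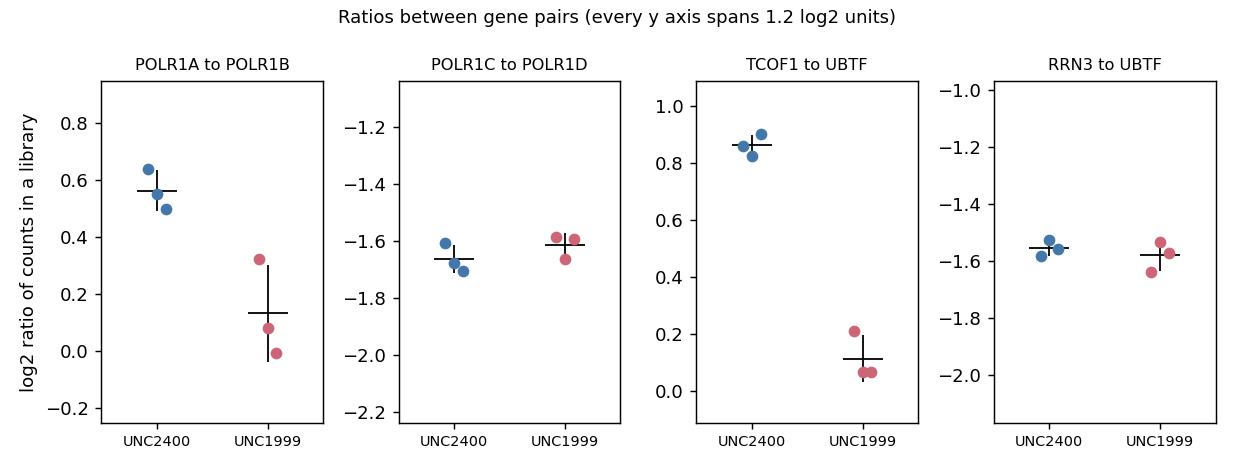
Log2 ratio of counts between 2 genes within each library, for 4 pairs, on axes of equal length; points are libraries, horizontal bars group means and vertical bars the SD over 3 libraries. The ratios of POLR1A to POLR1B and of TCOF1 to UBTF are lower in every UNC1999 library, while those of POLR1C to POLR1D and of RRN3 to UBTF overlap.

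POLR1E (chr9:37485935-37503697, plus strand) encodes a subunit of the dimer that sits on the outside of Pol I and supports initiation and elongation. It had 35.6, 34.1 and 35.4 CPM with UNC2400 and 39.0, 39.5 and 39.5 CPM with UNC1999. The groups did not overlap, but the step was small, from 35.0 ± 0.840 to 39.3 ± 0.269 CPM (SD, n = 3), or 0.17 ± 0.05 on the log2 scale (SE, adjusted p = 0.0149). This call was lost without UNC1999 replicate 3 (adjusted p = 0.0693), without UNC2400 replicate 2 (0.0844), with DESeq2 (0.0902) and with no filter on low counts (0.0936), and the offset removed the difference (-0.01, adjusted p = 0.924).

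Of the other 8 Pol I subunits 6 rose, 1 fell and 1 did not pass, with a median log2 fold change of 0.22. The shares over all genes tested were 26.8% higher and 25.9% lower. TWISTNB (now POLR1F), a subunit of the Pol I stalk, rose from 80.9 ± 0.835 to 99.8 ± 4.38 CPM (SD, n = 3), by 0.30 ± 0.05 on the log2 scale (SE, adjusted p = 8.19e-05). CD3EAP (POLR1G), the partner of POLR1E in its dimer, was 0.28 ± 0.07 higher (SE, adjusted p = 0.00422), and ZNRD1 (POLR1H), a small subunit that serves RNA cleavage, was 0.48 ± 0.08 higher (SE, adjusted p = 6.62e-05). Of the 6 subunits found in Pol I alone, POLR1A was the only one lower with UNC1999, POLR1B did not pass and the other 4 rose. With the offset POLR1A stayed lower and none of these 4 passed.

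Subunits that Pol I shares with RNA polymerases II and III went both ways. POLR2H, POLR2K and POLR2L rose by 0.27, 0.17 and 0.14 on the log2 scale, POLR2E fell by 0.24 ± 0.05 (SE, adjusted p = 0.00126), and POLR2F did not pass (-0.05, 95% interval -0.15 to 0.06). The call of POLR2K was lost without UNC2400 replicate 1 (adjusted p = 0.0708) or UNC1999 replicate 3 (0.0629), and that of POLR2L without UNC2400 replicate 1 (0.153) or 2 (0.0815) or UNC1999 replicate 3 (0.226). With the offset none of the 8 other Pol I subunits remained higher and POLR2E remained lower.

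Among subunits found only in RNA polymerase II, 3 of 7 rose and none fell, with a median of 0.06. Of 11 found only in Pol III, 4 rose and 4 fell, with a median of 0.02. The shares over all genes tested were 26.8% higher and 25.9% lower. With the offset, none of these RNA polymerase II subunits was higher and 2 were lower, and for Pol III 2 were higher and 5 lower. The widest contrast in Pol III was between the alternative subunits POLR3G, typical of stem cells, and POLR3GL, typical of differentiated cells. POLR3G went from 163 ± 6.33 to 103 ± 11.8 CPM (SD, n = 3), lower by 0.66 ± 0.07 on the log2 scale (SE, adjusted p = 5.69e-07). POLR3GL, at 2.19 ± 0.0787 and 4.10 ± 0.434 CPM, was 0.90 ± 0.15 higher (SE, adjusted p = 8.88e-05).

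**Figure D3:**
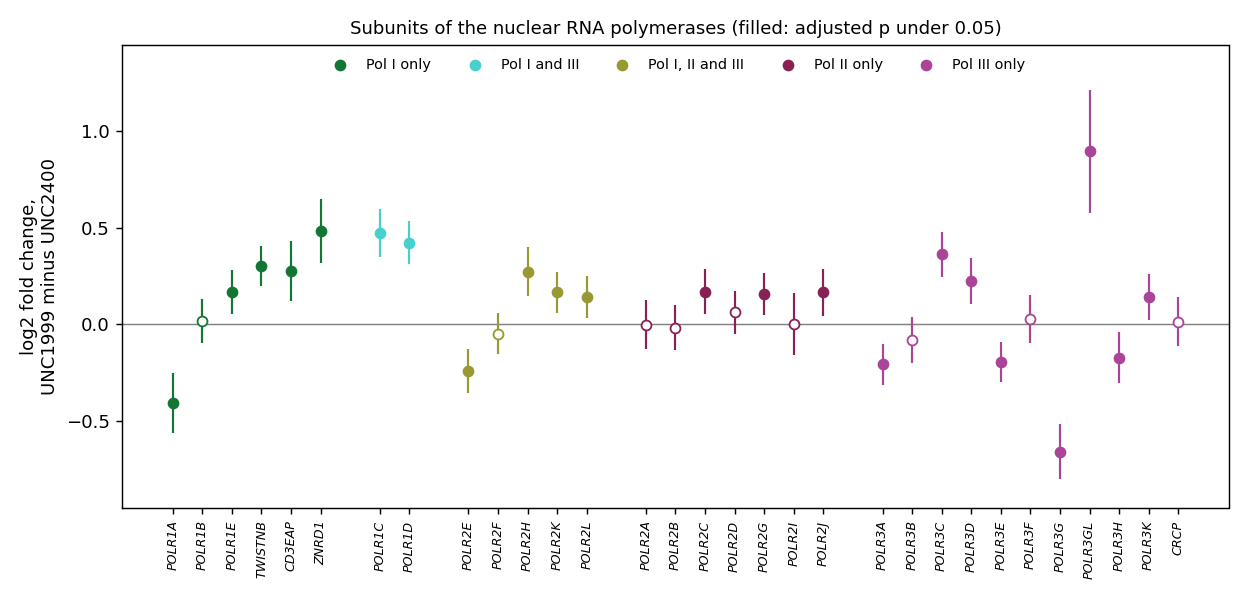
Log2 fold change, UNC1999 minus UNC2400, of subunits of the nuclear RNA polymerases, grouped by the polymerases that hold them; bars are 95% intervals and filled points passed an adjusted p of 0.05. POLR1A and POLR3G lie lowest, at -0.41 and -0.66, while POLR1C, POLR1D and ZNRD1 lie between 0.42 and 0.48.

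UBTF, RRN3 and TAF1D act at the start of transcription, and all rose, TAF1D the most. UBTF (chr17:44205033-44221626, minus strand) had 188, 183 and 180 CPM with UNC2400 and 219, 196 and 205 CPM with UNC1999. The highest UNC2400 library lay just below the lowest UNC1999 library, and the log2 difference was 0.17 ± 0.05 (SE, adjusted p = 0.0117). That call was lost without UNC1999 replicate 1 (adjusted p = 0.0726) or 3 (0.0690) and without UNC2400 replicate 2 (0.0511) or 3 (0.0716), and with the offset (0.10, adjusted p = 0.191). Without UNC1999 replicate 1, the library with the highest UBTF, the log2 difference was 0.11.

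RRN3 (chr16:15060022-15094317, minus strand) stood at 62.6, 63.4 and 61.0 CPM with UNC2400 and at 70.2, 67.7 and 69.0 CPM with UNC1999. Each group spanned under 3 CPM and they did not overlap, with a log2 difference of 0.15 ± 0.05 (SE, adjusted p = 0.0187). The call was lost in 8 of 16 alternatives: with DESeq2 (adjusted p = 0.101), with no filter on low counts (0.138), with the offset (0.06, adjusted p = 0.333) alone or with a replicate term, and without UNC2400 replicate 1 (0.0583) or 3 (0.103) or UNC1999 replicate 1 (0.0665) or 3 (0.0962). RRN3 has near-identical pseudogene copies between which reads could be split, so its level is uncertain to that extent. RRN3P1 and RRN3P3 had 4.87 ± 0.476 and 2.83 ± 0.357 CPM with UNC2400 and 4.76 ± 1.17 and 2.63 ± 0.334 CPM with UNC1999 (SD, n = 3), and none of the 3 listed copies passed the test. The ratio of RRN3 to UBTF counts overlapped, at -1.56 ± 0.03 and -1.58 ± 0.05 on the log2 scale (SD, n = 3; exact two-sided permutation p = 0.6 before and after adjustment).

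TAF1D (chr11:93729948-93784391, minus strand) encodes a subunit of SL1, and snoRNA genes lie within it. It had 106, 103 and 90.6 CPM with UNC2400 and 128, 158 and 122 CPM with UNC1999. UNC1999 replicate 2 was far above the others, yet the lowest UNC1999 library was also above every UNC2400 library. The mean went from 99.9 ± 8.28 to 136 ± 19.1 CPM (SD, n = 3), higher by 0.44 ± 0.08 on the log2 scale (SE, adjusted p = 0.000195), and by 0.32 without UNC1999 replicate 2. Of 8 snoRNAs listed for its introns 1 had enough counts to be tested and it did not pass. SNORA1, SNORA8, SNORA18, SNORA25, SNORA32, SNORA40 and SNORD5 also overlap annotated TAF1D exons on the same strand. Each shares at most 1.65% of the TAF1D exon bases. Poly(A) selection leaves out most snoRNA, and how reads of shared bases were assigned is not given, so the reason for the low counts was not tested.

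The other initiation and termination factors gave 3 higher, none lower and 3 that did not pass, among 6, with a median of 0.11. The shares over all genes tested were 26.8% higher and 25.9% lower. With the offset none of the 5 that could be given one passed; PTRF had no length or GC values and so no offset. TAF1A, another SL1 subunit, went from 8.85 ± 0.557 to 10.9 ± 0.377 CPM (SD, n = 3), 0.29 ± 0.09 higher on the log2 scale (SE, adjusted p = 0.0133). That call was lost without UNC2400 replicate 1 (adjusted p = 0.0668), with DESeq2 (0.0592) and with the offset (0.0507), and was at 0.05002 without UNC1999 replicate 2. The remaining parts of SL1 did not pass, with log2 fold changes of 0.02 for TAF1B (95% interval -0.12 to 0.15), -0.02 for TAF1C (-0.15 to 0.11) and 0.07 for TBP (-0.06 to 0.20). The interval of TAF1D, 0.27 to 0.61, lay above these 3.

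PTRF (now CAVIN1), which releases Pol I transcripts at the terminator in vitro and also builds caveolae, had 35.0, 31.6 and 36.7 CPM with UNC2400 and 45.3, 64.4 and 63.1 CPM with UNC1999. It was 0.75 ± 0.10 higher on the log2 scale (SE, adjusted p = 1.03e-05), more than any of the 10 genes. TTF1, which binds the terminators, was 0.14 higher (adjusted p = 0.0361), a call lost in 9 of 16 alternatives, among them those without UNC2400 replicate 1 (adjusted p = 0.223) or 3 (0.0654) and without UNC1999 replicate 2 (0.0867) or 3 (0.150).

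TCOF1 (chr5:150357629-150400308, plus strand) encodes treacle, a nucleolar protein that binds UBTF and Pol I and is altered, like POLR1B, POLR1C and POLR1D, in Treacher Collins syndrome. It had 340, 324 and 335 CPM with UNC2400 and 253, 205 and 214 CPM with UNC1999. The groups were wide apart, with UNC1999 replicate 1 nearest to UNC2400. The mean went from 333 ± 8.55 to 224 ± 25.2 CPM (SD, n = 3), and TCOF1 fell by 0.57 ± 0.07 on the log2 scale (SE, adjusted p = 2.37e-06). Of these 4 genes of the syndrome, TCOF1 fell, POLR1C and POLR1D rose and POLR1B did not pass. The ratio of TCOF1 to UBTF counts went from 1.81, 1.77 and 1.86 with UNC2400 to 1.15, 1.05 and 1.04 with UNC1999, a difference of -0.75 on the log2 scale and no overlap (exact two-sided permutation p = 0.1, the smallest possible, adjusted 0.2).

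HEATR1 (chr1:236549005-236604504, minus strand) is the human counterpart of yeast Utp10, a part of the small-subunit processome that couples ribosomal RNA transcription to its processing. It stood at 233, 215 and 237 CPM with UNC2400 and at 166, 140 and 142 CPM with UNC1999. Every UNC1999 library lay well below every UNC2400 library, replicate 1 again being the nearest. HEATR1 fell by 0.61 ± 0.06 on the log2 scale (SE, adjusted p = 9.20e-07), the most of the 10 genes. By the annotation, 23.2% of its exon bases overlap LGALS8 on the opposite strand. The libraries mark strand but the counting's strand setting is not given in the sources used here, so reads of the 2 genes may not have been told apart. LGALS8 had 20.4 ± 1.43 CPM with UNC2400 and 13.7 ± 0.923 CPM with UNC1999 (SD, n = 3), below the 228 and 150 CPM of HEATR1. It was lower too, by 0.57 ± 0.08 on the log2 scale (SE, adjusted p = 1.71e-05). The part of the overlap in the HEATR1 counts was not tested.

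Of 7 other factors that couple transcription to processing, 1 rose, 1 fell and 5 did not pass, with a median of -0.04. The shares over all genes tested were 26.8% higher and 25.9% lower. NOLC1, a nucleolar chaperone, fell from 470 ± 13.04 to 395 ± 15.6 CPM (SD, n = 3), by 0.25 ± 0.05 on the log2 scale (SE, adjusted p = 0.000761), and UTP15, a subunit of the same subcomplex as HEATR1, was 0.21 ± 0.05 higher (SE, adjusted p = 0.00306). With the offset none was higher and 3 were lower (NOLC1 at -0.50, DDX21 at -0.18 and WDR75 at -0.15), and UTP15 did not pass (adjusted p = 0.160).

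Of 15 listed regulators of Pol I and of ribosomal DNA chromatin 14 were tested, of which 8 were lower, 3 higher and 3 did not pass, with a median of -0.16, where 25.9% of all genes tested were lower and 26.8% higher. SMARCA5 and BAZ2A, which form the NoRC complex that silences ribosomal DNA repeats, fell by 0.40 ± 0.06 (SE, adjusted p = 3.77e-05) and by 0.22 ± 0.05 (SE, adjusted p = 0.00228) on the log2 scale. PHF8, a histone demethylase that promotes ribosomal DNA transcription, fell from 64.8 ± 1.66 to 44.2 ± 3.62 CPM (SD, n = 3), by 0.55 (adjusted p = 1.13e-06). MYBBP1A, a nucleolar repressor of Pol I, fell from 151 ± 12.98 to 108 ± 10.3 CPM, and ERCC6, which stimulates Pol I, was 0.44 higher (adjusted p = 0.000483). MYC, a transcription factor that raises ribosome production, was 0.23 higher (adjusted p = 0.00114), but 0.00 with the offset (adjusted p = 0.997). MYCN was 0.15 lower (-0.15, adjusted p = 0.0290), a call lost without UNC2400 replicate 1 (0.0548) or 2 (0.172) or UNC1999 replicate 2 (0.0877). With the offset, 2 regulators were higher and 5 lower, and signs changed: RB1 went from -0.25 to 0.11, KDM2B from -0.25 to 0.05 and KDM2A from -0.08 to 0.14, the last passing only with the offset (adjusted p = 0.0436).

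The product of Pol I itself was hardly measured. Ribosomal RNA has no poly(A) tail, so selection leaves out most of it. What part selection, annotation or multi-mapping played in the rows below was not tested. Of 5 ribosomal RNA gene names looked for, 2 were in the table. RNA45S5, the precursor, had no count in any library. RNA28S5 had 71.0, 57.8 and 55.6 CPM with UNC2400 and 117, 49.9 and 73.9 CPM with UNC1999, so that UNC1999 replicates held both the highest and the lowest value. Its log2 fold change was 0.39 with a 95% interval of -0.01 to 0.78 (adjusted p = 0.0964), and -0.0084 without UNC1999 replicate 1; the row passed without UNC1999 replicate 2 (adjusted p = 0.00238), with a replicate term (0.0115) and with no filter on low counts (3.61e-08).

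Levels of different genes were compared per length of the principal transcript, in CPM per kilobase (kb). With UNC2400 the order was POLR1D at 97.4, TCOF1 at 68.9, TAF1D at 48.0, UBTF at 36.7, HEATR1 at 27.0, POLR1C at 26.5, POLR1B at 24.8, POLR1E at 18.7, RRN3 at 16.6 and POLR1A at 13.1 CPM per kb. The ranges over libraries of HEATR1 (25.5 to 28.01) and POLR1C (25.7 to 27.3) overlapped, as did HEATR1 with POLR1B (23.6 to 25.6). Compared within each library, HEATR1 lay above POLR1B in every UNC2400 library, so their overlap was between different libraries only. HEATR1 lay above POLR1C in some UNC2400 libraries and below it in another. The ranges of POLR1C and POLR1B, next to each other in the order, just failed to overlap. These differences between genes were not tested. With UNC1999, POLR1D stood at 131 and POLR1A at 9.87 CPM per kb, again first and last. TAF1D at 65.3 passed TCOF1 at 46.4, and HEATR1 at 17.7 moved from place 5 to place 9, its libraries (16.6 to 19.7) overlapping those of RRN3 (17.99 to 18.7). The order depends on the length used: by the joined length of all annotated exons POLR1D, whose annotation holds many isoforms, came in place 9 and TCOF1 first with UNC2400.

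Across the 84.2% of tested genes with a known length, longer genes had lower fold changes. With these genes in 5 equal bins of genomic span, the median log2 fold change from the shortest to the longest bin was 0.20, 0.11, 0.02, -0.08 and -0.28. The 10 genes lay on both sides of these medians. HEATR1 (55.5 kb), POLR1A (85.9 kb), POLR1C (52.7 kb) and TAF1D (54.4 kb) all lay in bin 4, where 2 of them fell and 2 rose. POLR1D, at 123 kb in the longest bin, rose. UBTF (16.6 kb) and POLR1E (17.8 kb), in bin 2, rose by 0.17 each, near the median of 0.11 there. Spans differ between annotations: RefSeq gives 11.3 kb for TAF1D and 46.7 kb for POLR1D. By these spans TAF1D would lie in bin 2 (9144 to 21829 bases) and POLR1D in bin 4 (44437 to 101034 bases). In bins of joined exon length, the median log2 fold change went from 0.16 in the shortest to -0.21 in the longest. Principal transcripts held 12749 (POLR1A), 8447 (HEATR1) and 4832 bases (TCOF1) for the 3 that fell. They held 1355 (POLR1C), 1166 (POLR1D) and 2082 bases (TAF1D) for the 3 that rose most. UBTF, at 4997 bases, also rose. The part of transcript length was not tested.

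**Figure D4:**
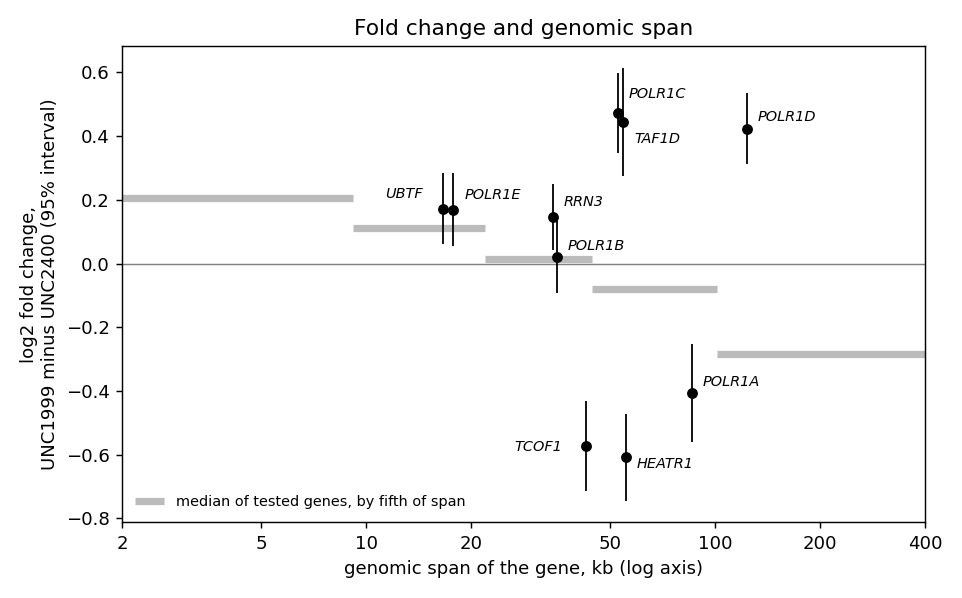
Log2 fold change of each gene, UNC1999 minus UNC2400 with its 95% interval, against genomic span in GENCODE release 29 on a log axis; grey bars are the medians of the tested genes with a known span in each of 5 bins of span, the outer ones cut at the axis limits. Genes of similar span lie on both sides of 0, POLR1C at 0.47 and HEATR1 at -0.61. Transcript length is not shown. The span of TAF1D differs widely between annotations.

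In a fit with an offset per gene and library for the trend of its log2 CPM with span, exon length and GC content, 6 of the 10 genes passed, where 48.3% of all genes tested did. POLR1C (0.48), POLR1D (0.60) and TAF1D (0.53) were higher, and HEATR1 (-0.55), TCOF1 (-0.43) and POLR1A (-0.25) were lower, with adjusted p-values of 0.00427 for POLR1A and at most 3.04e-05 for the others. The small differences of UBTF, POLR1E and RRN3 did not pass in it. These 6 genes kept their call and direction in all 16 alternatives, with log2 fold changes of 0.40 to 0.49 for POLR1C, 0.36 to 0.60 for POLR1D, 0.32 to 0.53 for TAF1D, -0.71 to -0.55 for HEATR1, -0.69 to -0.43 for TCOF1 and -0.53 to -0.25 for POLR1A. How many of all genes tested kept their call in all 16 alternatives was not counted. What part length played in the change of any single gene was not tested. The offsets used GENCODE spans and joined exon lengths, 123 kb and 11210 bases for POLR1D and 54.4 kb and 8420 bases for TAF1D. Their RefSeq spans were shorter, 46.7 and 11.3 kb, and offsets from those were not run.

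**Figure D5:**
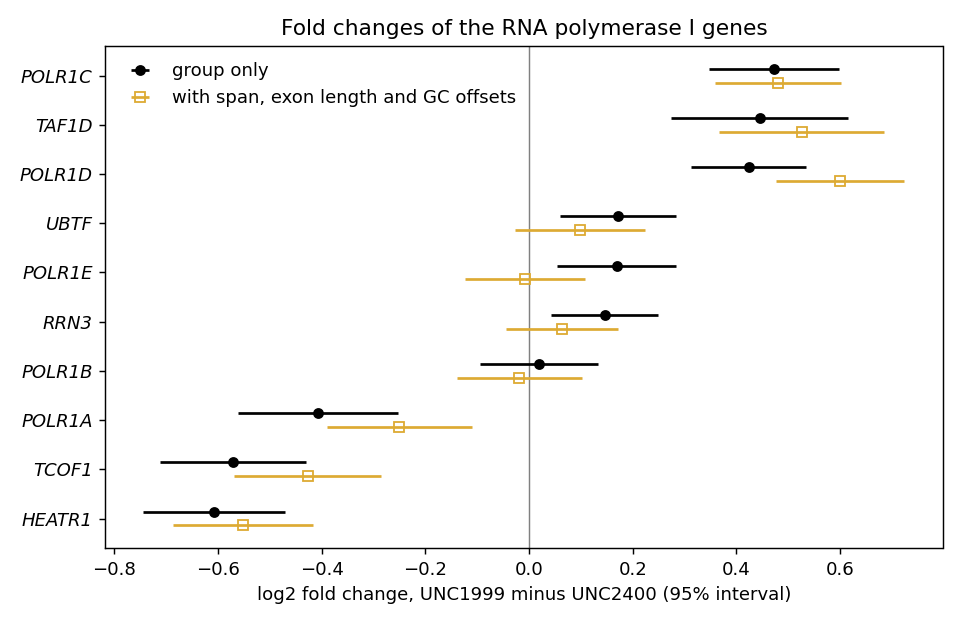
Log2 fold changes with 95% intervals for the 10 genes from the fit with group alone (filled) and from the fit with span, exon length and GC offsets (open). The intervals of POLR1C, TAF1D, POLR1D, POLR1A, TCOF1 and HEATR1 lie on one side of 0 in both fits, and those of UBTF, POLR1E and RRN3 reach 0 with the offsets.

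In the authors' deposited table of the same comparison, 8 of the 10 genes passed an adjusted p of 0.05, as did 44.0% of its genes. The authors' deposited table gave log2 fold changes of -0.63 for HEATR1, -0.59 for TCOF1, -0.43 for POLR1A, 0.45 for POLR1C, 0.42 for TAF1D and 0.41 for POLR1D. RRN3 did not pass in the authors' deposited table (adjusted p = 0.0640), nor did POLR1B (0.984).

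Over the 6 libraries, the levels of the 10 genes fell into sets that went with the groups. The Pearson correlation of log2 CPM with POLR1A was 0.98 for TCOF1 and 0.97 for HEATR1, 0.03 for POLR1B, and between -0.93 (POLR1D) and -0.53 (UBTF) for the other 6. Because the groups stand apart, these values mostly restate the group differences and carry no test. Among the 10315 genes whose mean log2 CPM reached 3, the 3 most like POLR1A were NNT (0.999), CUX2 (0.998) and ALG9 (0.998), and 41 genes exceeded 0.99.

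Genes listed as markers of other cell types were measured as well, and whether such cells were present was not tested. Fibroblast or feeder markers had a summed level of 271 to 302 CPM with UNC2400 and 181 to 197 CPM with UNC1999 over 8 genes. Most of it came from COL1A2 (mean 137 CPM with UNC2400 and 85.5 with UNC1999), THY1 (88.3 and 68.3) and COL1A1 (57.2 and 33.8). Of the 5 tested 4 fell, among them COL1A1 by 0.76, COL1A2 by 0.67 and THY1 by 0.37 on the log2 scale, and 1 rose. The shares over all genes tested were 26.8% higher and 25.9% lower. DCN, LUM and COL3A1 were too low to be tested. Summed neural markers were at 3.61 to 4.65 and 2.39 to 3.05 CPM, trophoblast markers at 1.74 to 2.61 and 2.03 to 2.56 CPM with CGB5 at 0 in all libraries, endoderm markers at 1.92 to 2.99 and 1.80 to 2.07 CPM, and mesoderm markers at 5.62 to 8.02 and 7.34 to 9.73 CPM, with UNC2400 and UNC1999 in turn. Within these low sums, MAP2 of the neural list fell by 1.07 (adjusted p = 0.000231), and of the endoderm list AFP fell by 1.34 (adjusted p = 0.000411) and GATA4 was 1.37 higher (adjusted p = 0.00400) on the log2 scale. The part of these shifts in the levels of the 10 genes was not tested.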

How the data were processed

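The authors deposited raw counts, 1 whole number per gene name and library, in a table marked as having duplicates removed. The submitters' processing notes name Trim Galore 0.4.0, TopHat2 2.0.13, featureCounts, Subread 1.5.0 and the build hg19 without roles. For annotation, strand setting and multi-mapping the sources used here give nothing. Per the file headers, the authors' deposited log2 values are marked as normalized and batch-corrected, and the comparison table deposited by the authors has fold changes (log2), p-values and a test score per gene.

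Counts were tested with edgeR 4.0.16 in R 4.3.3 (two-sided quasi-likelihood F test with TMM factors, its default low-count filter and group as the only term), with Benjamini-Hochberg adjustment over 17596 genes and a threshold of 0.05. CPM are TMM-scaled. Groups and replicate numbers came from sample titles. Whether replicates were separate cultures is not stated, so p-values reflect only how these libraries vary, which may be technical. Replicate was left out of the main fit. Correlations of deviations from the group mean were 0.02, 0.08 and 0.12 for libraries of the same number, and -0.14 to 0.06 between different numbers. Replicate 2 had the most genes with any count in both groups, 29385 and 29527 against 26413 to 26918 in the other libraries. Whether replicate numbers mark a batch was not tested, and a fit with a replicate term is among the alternatives. Ratios were compared by exact permutation, with a smallest p of 0.1.

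All 10 genes, genes of the context lists and the 3 genes most like POLR1A are named; members and lists were chosen with earlier results of these data known. Lengths, GC content and locations came from GENCODE release 29 by name (84.2% of tested genes), on GRCh38 rather than the hg19 of the counts; genes without them, such as PTRF and RNA28S5, got no offset. Promoters are from RefSeq. Scripts were tested on simulated data. Alternatives were DESeq2 1.42.0, limma 3.58.1 (voom, and on the authors' log2 values), other scalings and filters, offsets, a replicate term and leaving out each library.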

Additional observations from a re-analysis of the deposited data

How the results depend on the processing

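HEATR1, TCOF1, POLR1A, POLR1C, POLR1D and TAF1D kept direction and call in all 16 alternatives run. The share of all genes tested that did so was not computed. The count of the 10 genes that were higher went from 6 to 3 with the span, exon length and GC offsets, and to 3 when a replicate block was added to these. Leaving out 1 library at a time gave 3 to 6 higher (3 without UNC1999 replicate 3) and 3 lower. Over all genes it gave 3642 to 4925 higher and 3951 to 5151 lower. It gave ratio differences of -0.53 to -0.36 (POLR1A to POLR1B), 0.03 to 0.08 (POLR1C to POLR1D), -0.80 to -0.72 (TCOF1 to UBTF) and -0.049 to 0.0038 (RRN3 to UBTF); the last, which reversed, is the value without UNC1999 replicate 1. With 2 against 3 libraries the smallest exact p was 0.2.

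The replicate block gave 6 higher and 3 lower among the 10 genes, and 4867 and 4695 over all genes. In deviations from the group mean, every library but UNC2400 replicate 1 correlated best with its own number. UNC2400 replicate 1 was at 0.02 with its own number and 0.06 with UNC1999 replicate 2. DESeq2 gave 3647 and 4079 over all genes. Limma on the authors' deposited log2 values gave 6024 and 5738. That run used values already marked as batch-corrected, with group as its only term. Another scaling moved the median log2 fold change of all genes from 0.02 to 0.0070 (RLE) or 0.03 (upper quartile).

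Several signs reversed, and the cause was not tested beyond the setting itself. With the offsets this included genes of the context lists that had passed: POLR2G went from 0.16 to -0.14 (adjusted p = 0.0443), POLR3K from 0.14 to -0.14 and RB1 from -0.25 to 0.11; TDGF1, not called before, went from 0.05 to -0.24 (adjusted p = 0.0111). With the offsets, without and with the replicate block, POLR1B was at -0.019 and -0.020, POLR1E at -0.0074 and -0.0082, POLR2F at 0.13 and 0.14, POLR2K at -0.082 and -0.083 and TBP at -0.10 and -0.10, and MYC was at -0.00052 with both. POLR2F passed only with both (adjusted p = 0.0398). Without UNC2400 replicate 1, RRN3P1 was at 0.05. Without UNC2400 replicate 2, POLR1B was at -0.02. Without UNC1999 replicate 1, POLR1B was at -0.0052, TAF1B at -0.0097, RRN3P1 at 0.081 and RNA28S5 at -0.0084. Without UNC1999 replicate 3, POLR1B was at -0.030, TAF1B at -0.034, TAF1C at 0.035 and RRN3P1 at 0.023. The other end of these ranges was reached without UNC1999 replicate 2, at 0.049 for POLR1B, 0.049 for TAF1B, -0.087 for TAF1C, -0.25 for RRN3P1 and 0.63 for RNA28S5. The 10 genes had 1026 or more counts in each library; what depth limits for them was not tested.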
